A study of Homo sapiens with 9 samples.

Results

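The genes described here are 10 targets of the transcription co-activators YAP and TAZ and their DNA-binding TEAD partners: CCN1, CCN2, ANKRD1, AMOTL1, AMOTL2, AJUBA, CRIM1, F3, NT5E and MYOF. They were chosen by name, with their FPKM at 0, 4 and 6 µM known from earlier results of these libraries, so their levels and differences are a description and carry no weight as evidence for a response of the pathway. All 10 were found among the 15251 genes that could be named in the assembled transcripts, and 9 of them were among the 12420 genes whose average over the libraries reached 1 FPKM, a level per exon length and sequencing depth. F3, with a mean of 0.635 FPKM, was not tested. ANKRD1 passed that filter only through its level in the vehicle libraries.

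The cells were WM3248, a human melanoma cell line, exposed for 24 h to ARN22089 at 4 or 6 µM or to the DMSO vehicle alone (0 µM), with 3 poly(A)-selected RNA-seq libraries per dose and no other treatment. ARN22089 is a small molecule described as a blocker of the interaction between CDC42 family GTPases and their effectors. Libraries with the same replicate number carry the same date at all 3 doses, but what the date refers to is not stated. Nothing in the labels says that the replicates were separate cultures, so every p-value measures only the spread between these libraries. All libraries come from 1 cell line, and fewer cells or less RNA per cell cannot be told apart in bulk RNA.

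YAP and TAZ are held in the cytoplasm when the Hippo kinases LATS1 and LATS2 phosphorylate them, and enter the nucleus when cells spread, feel a stiff substrate or build tension in the actin skeleton. In the nucleus they bind TEAD proteins, which recognise the bases GGAATG, often near AP-1 sites, and switch on genes for matrix proteins, cell-surface proteins and their own inhibitors. CDC42 and its effectors organise actin, and in melanoma YAP and TAZ are known for roles in invasion and drug tolerance.

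Promoter sequences are shown because the TEAD motif is how these genes are thought to be recognised, and the 4 printed here are those among the listed genes that hold a motif. The RefSeq table, in build GRCh38.p14, held 8 of the 10 genes; CCN1 and CRIM1 had no entry. Each sequence is the 250 bases before the annotated start, read 5′ to 3′ on the gene's own strand, with matches to the TEAD motif GGAATG or its complement CATTCC and to the AP-1 motif TGANTCA in capitals. CCN2 lies at chr6:131951373-131951622 on the minus strand, ANKRD1 at chr10:90921088-90921337 (minus), AMOTL2 at chr3:134374448-134374697 (minus) and F3 at chr1:94541760-94542009 (minus).
CCN2: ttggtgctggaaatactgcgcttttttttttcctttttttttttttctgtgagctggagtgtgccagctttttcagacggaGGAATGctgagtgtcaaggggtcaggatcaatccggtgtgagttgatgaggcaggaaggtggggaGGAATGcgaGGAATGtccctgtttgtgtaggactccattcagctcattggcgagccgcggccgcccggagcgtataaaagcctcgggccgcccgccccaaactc
ANKRD1: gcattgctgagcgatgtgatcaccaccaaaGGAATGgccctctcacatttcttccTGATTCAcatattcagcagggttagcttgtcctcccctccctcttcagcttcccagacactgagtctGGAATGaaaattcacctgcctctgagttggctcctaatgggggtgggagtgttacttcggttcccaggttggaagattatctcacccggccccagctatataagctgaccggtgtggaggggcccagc
AMOTL2: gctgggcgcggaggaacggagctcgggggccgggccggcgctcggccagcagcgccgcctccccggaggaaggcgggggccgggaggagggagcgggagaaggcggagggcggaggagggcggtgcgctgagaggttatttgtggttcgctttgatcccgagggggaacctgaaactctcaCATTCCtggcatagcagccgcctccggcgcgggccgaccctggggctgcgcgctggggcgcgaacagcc
F3: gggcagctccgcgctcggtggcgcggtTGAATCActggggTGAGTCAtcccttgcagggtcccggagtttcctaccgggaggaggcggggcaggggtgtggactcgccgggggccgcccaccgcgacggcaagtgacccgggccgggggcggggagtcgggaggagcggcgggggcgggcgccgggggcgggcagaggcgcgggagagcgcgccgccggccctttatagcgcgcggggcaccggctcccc

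The CCN2 promoter held 3 TEAD matches, at 169 to 164, 104 to 99 and 95 to 90 bases before the start. In vehicle replicate 3 the assembled CCN2 transcript began 165 bases upstream of the RefSeq start, so the 2 inner matches lay wholly inside it. In the other libraries CCN2 transcripts began downstream of the RefSeq start. Of 35116 RefSeq promoters of the same length, 4175 (11.9%) held at least 1 such match on either strand and 29 (0.0826%) held 3 or more. ANKRD1 held 2 TEAD matches, at 220 to 215 and 128 to 123 bases before the start, with an AP-1 match at 195 to 189. Its 5 fully assembled transcripts in these libraries began 86 to 142 bases upstream of the RefSeq start, so the inner match lay wholly inside the assembled transcript in 3 of them. AMOTL2 had 1 match, on the opposite strand at 69 to 64 bases. Its full-length transcript in vehicle replicate 2 began 101 bases upstream of the RefSeq start, so the match lay inside that transcript. F3 had no TEAD match but 2 AP-1 matches, at 223 to 217 and 210 to 204 bases; 6.57% of all promoters held an AP-1 match. The 250-base windows of AMOTL1, AJUBA, NT5E and MYOF held neither motif (for NT5E, full-length transcripts began 339 to 505 bases upstream of the RefSeq start in 8 of 9 libraries, so its window lay inside them), and none of the 8 held a CArG box, the motif of serum response factor, which 1.16% of all promoters held. The overlap of one motif with another was allowed. A match is a string of letters and not a measured binding site.

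Each library held 26506 to 30798 assembled transcripts, and the coverage per FPKM put the depths within 0.8 to 1.34 of their median; read totals are not given in the files. The FPKM of all transcripts summed to 587999 to 689699 in 8 libraries and to 1061112 in vehicle replicate 3. Rescaling to TPM therefore moved the median of all genes to 0.31 (4 against 0 µM) and 0.23 (6 against 0 µM) on the log2 scale, where the deposited FPKM gave 0 and -0.03. Correlations of log2 levels across genes were 0.884 to 0.917 within a dose and 0.859 to 0.916 between doses. All 8 melanocyte lineage markers were measured, and their summed level ran from 406 to 1390 FPKM at 0 µM, 1250 to 2360 at 4 µM and 1380 to 2050 at 6 µM. S100B alone ran from 97 to 1140 FPKM in vehicle. The pigment-cell genes PMEL, MLANA, TYR and TYRP1 were at up to 11 FPKM in vehicle, and MLANA was listed at 0 in 1 vehicle library. DCT, another pigment-cell gene, was at 55.3 to 141 FPKM in vehicle and 218 to 365 at 6 µM. None of the 8 passed the test at either dose. All 8 differences were positive at both doses, with medians of 0.93 at 4 µM and 1.14 at 6 µM. At each dose 5 of the 8 lay wholly above the vehicle libraries, where 9.79% (4 µM) and 11% (6 µM) of all tested genes did. The part of these markers in the results below was not tested. The 5 fibroblast markers summed to 14.8 to 42.2, 23.3 to 37.2 and 21.6 to 30.8 FPKM, and none of the 3 endothelial markers was found. Of 4 keratinocyte markers only KRT14 was found, at up to 2.27 FPKM, and of 4 leukocyte markers only LYZ, at 2.62 to 4.45 FPKM.

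**Figure D1:**
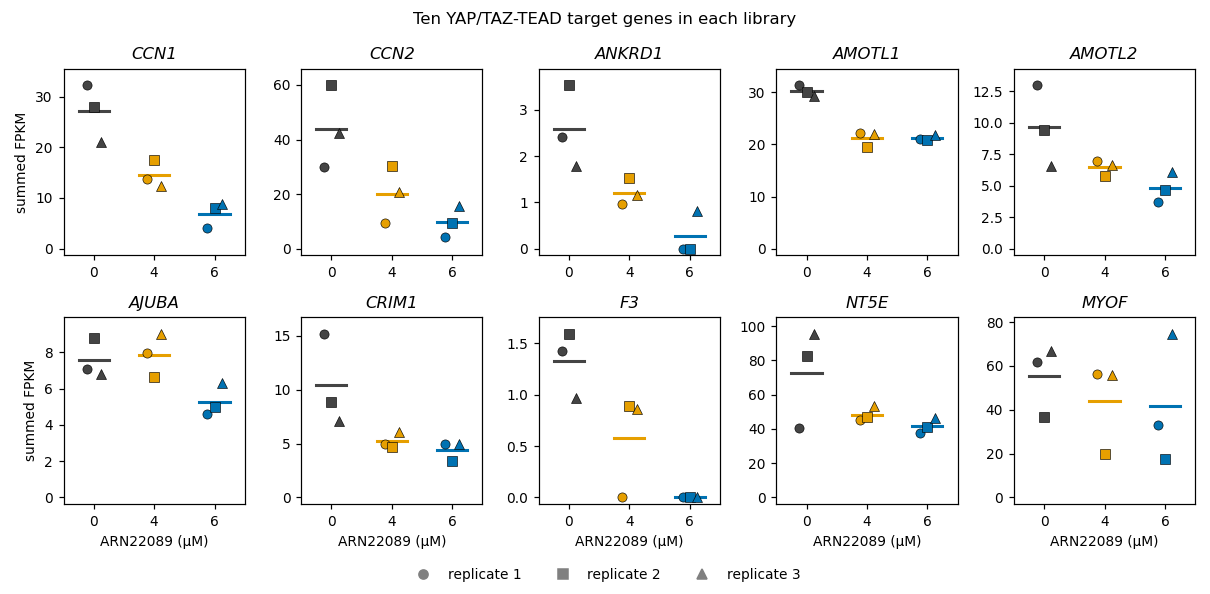
Summed FPKM of each of the 10 genes (y axes, linear, each with its own scale) against ARN22089 dose in µM, with 1 symbol per library (shape gives the replicate number) and a bar at the mean of 3. The 6 µM symbols of CCN1, at 4.11 to 8.76 FPKM, sit below all vehicle symbols, at 21.1 to 32.3, whereas those of MYOF overlap.

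The secreted matrix proteins CCN1 and CCN2 are the best known YAP/TAZ targets; both sit in the extracellular matrix and bind integrins. CCN1 (GRCh38 chromosome 1, 85580761 to 85583950, 5 exons) was measured at 32.3, 28 and 21.1 FPKM in vehicle replicates 1, 2 and 3, at 13.8, 17.4 and 12.3 at 4 µM, and at 4.11, 7.93 and 8.76 at 6 µM. The 3 doses did not overlap, and within each replicate number the level was lower at each higher dose. The means were 27.1 ± 5.63, 14.5 ± 2.63 and 6.93 ± 2.48 FPKM (SD, n = 3), so that 53.5% of the vehicle mean was left at 4 µM and 25.6% at 6 µM. In vehicle replicate 1 the sum holds 2 overlapping transcripts, and the median over the exons of the canonical transcript (canonical exon value) was 22.9. By that value 60.4% was left at 4 µM and 28.9% at 6 µM. On the scale of log2(FPKM + 1) the difference was -0.85 ± 0.27 (SE; limma, adjusted p = 0.382) at 4 µM and -1.86 ± 0.27 (limma, adjusted p = 0.0465) at 6 µM. CCN1 was the only one of the 9 tested genes that passed the test, and only at 6 µM. With the replicate number as a block the limma adjusted p was 0.0652, and with TPM it was 0.123. A fit of the 6 and 0 µM libraries alone gave 0.106, and leaving out any single library other than replicate 3 at 6 µM ended the call, with adjusted p up to 0.109; the difference stayed between -2.04 and -1.57. The Cufflinks bounds deposited for the transcript, which cover read and assignment uncertainty within 1 library, ran from 26.1 to 29.9 FPKM in vehicle replicate 2 and from 6.94 to 8.92 in replicate 2 at 6 µM.

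CCN2 (chromosome 6, 131948176 to 131951372, minus strand, 5 exons) was at 29.8, 60 and 42.3 FPKM in the vehicle libraries, 9.22, 30.3 and 20.8 at 4 µM, and 4.31, 9.35 and 15.8 at 6 µM. Replicate 1 was the lowest at every dose, the vehicle and 6 µM libraries did not overlap, and the 4 µM libraries overlapped both. The means were 44 ± 15.2, 20.1 ± 10.5 and 9.82 ± 5.76 FPKM (SD, n = 3), or 45.6% and 22.3% of the vehicle mean. Its log2 differences were -1.18 ± 0.52 at 4 µM (limma, adjusted p = 0.459) and -2.15 ± 0.52 at 6 µM (limma, adjusted p = 0.0927). A limma fit that treated same-numbered libraries as blocks gave CCN2 the same differences with an SE of 0.28. In that limma fit CCN2 had an adjusted p of 0.315 at 4 µM and 0.0562 at 6 µM. CCN1 had 0.0652 at 6 µM there, and neither gene passed. In replicate 1 at 4 µM the last exon of CCN2 was assembled as a transcript of its own and is not in that library's value. LINC01013, a gene on the opposite strand over CCN2 exons, was listed at 0 in 8 libraries and at 0.986 FPKM in vehicle replicate 3.

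ANKRD1 (chromosome 10, 90912096 to 90921087, minus strand, 9 exons) encodes an ankyrin repeat protein of the nucleus and of the muscle sarcomere. It was low throughout, at 2.42, 3.54 and 1.78 FPKM in the vehicle libraries and 0.963, 1.52 and 1.15 at 4 µM. At 6 µM it was listed at 0 in replicates 1 and 2 and at 0.82 in replicate 3. No 4 µM library reached the vehicle range and no 6 µM library reached the 4 µM range. The limma differences were -0.67 ± 0.35 at 4 µM (adjusted p = 0.515) and -1.52 ± 0.35 at 6 µM (adjusted p = 0.0866), and the latter depends on the pseudocount of 1, since an unassembled transcript has no level. All 9 exons were assembled in the 3 vehicle libraries and in 1 library at each of the other doses; replicates 1 and 3 at 4 µM held 5 and 7 exons, with the 5′ end missing.

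AMOTL1, AMOTL2 and AJUBA encode proteins that act back on the pathway. The angiomotin-like proteins AMOTL1 and AMOTL2 sit at cell junctions and on actin and bind YAP, and AJUBA is a LIM-domain scaffold that binds LATS kinases. AMOTL1 (chromosome 11, 94706460 to 94876748) was measured at 31.4, 30.1 and 29.2 FPKM without the compound, 22.1, 19.5 and 21.9 at 4 µM, and 21.1, 20.9 and 21.8 at 6 µM. Both doses lay below the vehicle range and overlapped each other, and the spread was the smallest of the 10 genes relative to the level. The means were 30.2 ± 1.13, 21.2 ± 1.43 and 21.3 ± 0.516 FPKM (SD, n = 3), 70% and 70.3% of the vehicle mean at the higher doses. The log2 difference was -0.50 ± 0.11 at 4 µM (limma, adjusted p = 0.267) and -0.49 ± 0.11 at 6 µM (limma, adjusted p = 0.0889), and 0.01 ± 0.11 between 4 and 6 µM. A mean over the exon bases shared by most libraries (consensus exon value) instead gave -0.01 at 4 µM and 0 at 6 µM; in vehicle replicate 1 the last exon was assembled only in part.

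AMOTL2 (chromosome 3, 134355345 to 134375417, minus strand, 10 exons) was at 13, 9.44 and 6.57 FPKM in the vehicle libraries, 6.97, 5.74 and 6.64 at 4 µM, and 3.67, 4.69 and 6.05 at 6 µM. The vehicle libraries were spread most widely, and only the 6 µM libraries lay wholly below them. The means were 9.68 ± 3.24, 6.45 ± 0.64 and 4.8 ± 1.19 FPKM (SD, n = 3), with log2 differences of -0.48 ± 0.25 (limma, adjusted p = 0.516) and -0.86 ± 0.25 (limma, adjusted p = 0.141). The difference at 6 µM was -1.72 by the canonical exon value (limma, adjusted p = 0.046) and -1.20 by the consensus exon value (limma, adjusted p = 0.0348), so both of these called it. AJUBA (chromosome 14, 22971177 to 22982551, minus strand, 8 exons) was at 7.08, 8.78 and 6.8 FPKM in vehicle, 7.98, 6.63 and 9.02 at 4 µM, and 4.58, 4.96 and 6.29 at 6 µM. The 4 µM libraries spanned the vehicle range, while those at 6 µM lay below both other groups. Its mean was 7.55 ± 1.07, 7.88 ± 1.2 and 5.28 ± 0.898 FPKM (SD, n = 3), and the log2 difference was 0.05 ± 0.18 at 4 µM (limma, adjusted p = 0.937) and -0.45 ± 0.18 at 6 µM (limma, adjusted p = 0.247). AJUBA was the only listed gene with a positive value at 4 µM, and its sign there turned with the processing.

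The other 4 genes encode proteins of the cell surface and plasma membrane. CRIM1 (chromosome 2, 36355778 to 36551135, 17 exons), a transmembrane protein with cysteine-rich repeats that binds bone morphogenetic proteins, was at 15.2, 8.86 and 7.14 FPKM in vehicle, 5.01, 4.65 and 6.09 at 4 µM, and 4.96, 3.42 and 4.97 at 6 µM. All treated libraries lay below all vehicle libraries, and vehicle replicate 1 stood above the rest. Its means of 10.4 ± 4.27, 5.25 ± 0.751 and 4.45 ± 0.894 FPKM (SD, n = 3) gave log2 differences of -0.81 ± 0.27 (limma, adjusted p = 0.384) and -1.02 ± 0.27 (limma, adjusted p = 0.113). F3 (chromosome 1, 94529173 to 94541759, minus strand, 6 exons), the tissue factor that starts blood coagulation, was at 1.42, 1.59 and 0.964 FPKM in vehicle. At 4 µM it was listed at 0 in replicate 1 and at 0.891 and 0.857 in replicates 2 and 3, and at 6 µM it was listed at 0 in all 3 libraries. A spliced F3 transcript was therefore assembled in every vehicle library and in no 6 µM library, and no fold is given for F3. In replicate 2 at 6 µM a single-exon transcript of 916 bases lay over F3 exon sequence on the same strand, at 0.909 FPKM. It was not named and is not in that library's value.

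NT5E (chromosome 6, 85450083 to 85495784, 9 exons) encodes CD73, the surface enzyme that makes adenosine from AMP, and was the most abundant of the 10 in vehicle. It was measured at 40.7, 82.5 and 95.5 FPKM without the compound, 45, 46.9 and 53.2 at 4 µM, and 37.5, 41.3 and 46.3 at 6 µM. Vehicle replicate 1 lay at the level of the treated libraries, and the other vehicle libraries lay far above them. The means were 72.9 ± 28.6, 48.4 ± 4.29 and 41.7 ± 4.39 FPKM (SD, n = 3), and the log2 differences were -0.50 ± 0.29 (limma, adjusted p = 0.556) and -0.71 ± 0.29 (limma, adjusted p = 0.253). Without vehicle replicate 1 the difference at 6 µM was -1.08 (limma, adjusted p = 0.0394), and by the consensus exon value it was -0.13.

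MYOF (chromosome 10, 93306429 to 93482334, minus strand, 54 exons), myoferlin, is a membrane-repair protein of the ferlin family. Its transcripts summed to 61.9, 36.9 and 66.9 FPKM in vehicle, 56.4, 20 and 55.9 at 4 µM, and 33, 17.5 and 74.7 at 6 µM. Replicate 2 was the lowest at every dose, replicate 3 at 6 µM was the highest of all 9, and the groups overlapped. The mean was 55.2 ± 16.1, 44.1 ± 20.8 and 41.7 ± 29.6 FPKM (SD, n = 3), with a log2 difference of -0.59 ± 0.56 at 6 µM (limma, adjusted p = 0.622). The fit with same-numbered libraries as blocks gave an SE of 0.27 at 6 µM (limma, adjusted p = 0.309). The difference was -0.10 without replicate 2 at 6 µM and -1.12 without replicate 3 at 6 µM. The long transcript was assembled in pieces, 4 of them in replicate 3 at 6 µM, and a sum over pieces counts a gene more than once. The median over the exons of the canonical transcript (canonical exon value) was 49.5, 36.9 and 49.6 in vehicle, 8.27, 20 and 37.2 at 4 µM, and 10.6, 17.5 and 14.1 at 6 µM. On that scale the 6 µM libraries lay below all vehicle libraries, and the 4 µM libraries reached the vehicle range. The log2 difference was -1.23 ± 0.45 at 4 µM (limma, adjusted p = 0.356) and -1.63 ± 0.45 at 6 µM (limma, adjusted p = 0.0863).

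**Figure D2:**
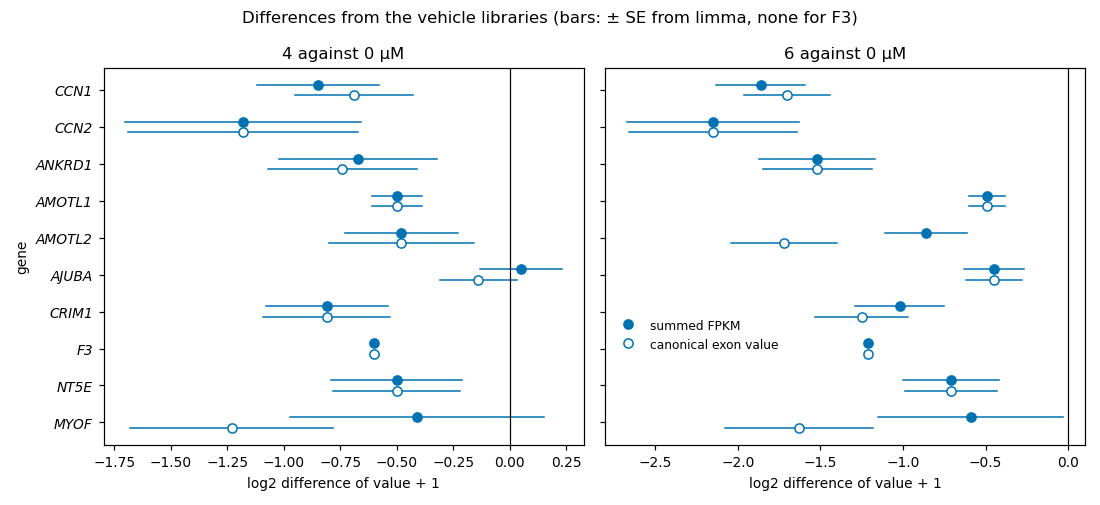
Log2 difference of value + 1 from the vehicle libraries (x axis) for each of the 10 genes (y axis) at 4 µM (left) and 6 µM (right), with filled circles for the summed FPKM, open circles for the canonical exon value and bars for ± 1 SE from limma (none for F3, which was not tested). All filled circles at 6 µM lie below 0, from -0.45 for AJUBA to -2.15 for CCN2, and those of AMOTL2 and MYOF move most between the scales. The F3 circles rest in part on values of 0, where no transcript named for F3 was assembled.

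At 4 µM, 9 of the 10 genes had a negative difference from vehicle and 0 of 9 passed the limma test; 11 of the 12420 tested genes (0.0886%) did. At an unadjusted p under 0.05, 4 of the listed genes were lower (CCN1, CCN2, AMOTL1 and CRIM1), against 4.61% of all tested genes. At 6 µM all 10 differences were negative and 1 of 9 passed, against 41 genes (0.33%) of all tested, of which 17 were lower (0.137%) and 24 were higher; with TPM 20 genes passed, 1 lower and 19 higher. At an unadjusted p under 0.05, 8 of the 9 tested genes were lower at 6 µM, all but MYOF, where 9.65% of all tested genes were. Between 6 and 4 µM, 9 of 10 differences were negative, 0 of 9 passed the limma test (7 genes of all tested, 0.0564%), and 3 were lower at an unadjusted p under 0.05 (2.91% of all tested genes). ANKRD1, which passed the filter only through its level in vehicle, is among the 9 tested genes, and its part in these counts carries no weight. Since the genes were listed with these comparisons known, nothing is read from their counts against these shares.

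The vehicle and 4 µM libraries did not overlap, with 4 µM lower, for 5 of the 10 genes (CCN1, ANKRD1, AMOTL1, CRIM1 and F3). Without F3, which was not tested and whose 0 values count only named transcripts, this is 4 of the 9 tested, against 8.36% of all tested genes. For 6 against 0 µM the groups did not overlap for 8 of the 10 (7 of the 9 tested), all but NT5E and MYOF, and for 14% of all tested genes. CCN1, ANKRD1 and AJUBA were lower at 6 than at 4 µM without overlap, as were 7.21% of all tested genes. Each of these comparisons counts ANKRD1, which passed the filter only through its level in vehicle. By the canonical exon value 9 of the 10 genes (8 of the 9 tested) lay wholly below vehicle at 6 µM, MYOF among them, as did 19.4% of 11742 tested genes. With TPM, which lowers vehicle replicate 3 relative to the rest, 0 of 10 genes at 4 µM and 4 of 10 (3 of the 9 tested) at 6 µM lay wholly below the vehicle libraries (0.766% and 2.21% of all tested genes). Both treated groups were compared with the same vehicle libraries.

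The median log2 difference of the 10 genes was -0.55 at 4 µM, -0.94 at 6 µM and -0.44 between the higher doses, where the median of all tested genes was 0, -0.03 and -0.03. The untested F3, whose differences rest in part on 0 values, enters the medians of the 10 genes but not the median of all tested genes. Taken within a replicate number, the median at 6 µM was -1.36 for replicate 1, -1.1 for replicate 2 and -0.53 for replicate 3, with 10, 10 and 9 genes lower. At 4 µM the medians were -0.81, -0.73 and -0.31, with 8, 10 and 8 genes lower. Replicate 3 thus had the smallest median at both doses. Among the 10 genes, CCN1, CCN2, ANKRD1 and CRIM1 were lower at each higher dose within every replicate number, as were 592 of the 12420 tested genes (4.77%); this pattern was picked out after the values were seen, and nothing is read from the count. The limma fit with the replicate number as a block called 0 of 9 genes at 6 µM and 4 genes of all tested (0.0322%). The consensus exon value called 6 of 9 at 6 µM (CCN1, CCN2, ANKRD1, AMOTL2, AJUBA and CRIM1), against 514 of 12449 genes (4.13%), and the canonical exon value 2 of 9 (CCN1 and AMOTL2), against 168 of 11742 (1.43%). The call of ANKRD1 carries no weight, since it passed the filter only through its level in vehicle.

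The sizes of the differences differed among the 10 and with the gene value. On the summed FPKM scale at 6 µM the 2 matrix proteins and ANKRD1 had log2 differences from -1.52 to -2.15, CRIM1 and AMOTL2 from -0.86 to -1.02, and AMOTL1, AJUBA, NT5E and MYOF from -0.45 to -0.71. By the canonical exon value AMOTL2 and MYOF, at -1.72 and -1.63, were as large as CCN1 at -1.70, and with a pseudocount of 0.1 ANKRD1 was at -3.62. In the fit without the block, the standard errors on the summed scale ran from 0.11 to 0.56. Differences between genes in this order were not tested. In vehicle the mean levels per length ran from NT5E at 72.9 FPKM and MYOF at 55.2 through CCN2 at 44, AMOTL1 at 30.2 and CCN1 at 27.1 to CRIM1 at 10.4, AMOTL2 at 9.68 and AJUBA at 7.55, with ANKRD1 and F3 below 4 in every library. In that order NT5E, MYOF, CCN2, AMOTL1 and CCN1 each overlapped the next, as did CRIM1, AMOTL2 and AJUBA, while CCN1 and CRIM1 did not. At 6 µM CCN1 and CCN2 were at means of 6.93 and 9.82 FPKM and their libraries overlapped those of AMOTL2, AJUBA and CRIM1, while NT5E had a mean of 41.7 FPKM. The MYOF sum over assembled pieces also averaged 41.7 FPKM, but its canonical exon value averaged 14.1 and its consensus exon value 19.8, where AMOTL1 was at 21.3 and 21.

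In 5 of the 6 treated libraries, all but replicate 2 at 4 µM, part or all of the AMOTL2 signal was in transcripts that lacked 1 or more 5′ exons, beside full-length transcripts in all but 1 of the 6. The first 3 exons were at 13.04, 9.44 and 6.33 FPKM in vehicle replicates 1, 2 and 3 and at 1.24, 0.86 and 1.86 at 6 µM, whereas the last 3 exons were at 11.5, 8.21 and 5.73 in vehicle and 3.38, 4.32 and 5.52 at 6 µM. The ratio of 5′ to 3′ exons was 1.13, 1.15 and 1.1 in vehicle, 0.29, 1.08 and 0.61 at 4 µM, and 0.37, 0.2 and 0.34 at 6 µM. Every vehicle library was above 1, every 6 µM library was below 0.4, and the 4 µM libraries ran from within the 6 µM range to just under the vehicle range. At 6 µM a transcript of 5 exons, starting 12933 bases after the RefSeq start, held 77.5% of the AMOTL2 FPKM in replicate 2 and 64% in replicate 3, and replicate 1 held 1 transcript of 9 exons. At 4 µM, transcripts of 7 exons held 58.2% and 14.6% in replicate 1 and 46.7% in replicate 3. No vehicle library held such a short form.

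**Figure D3:**
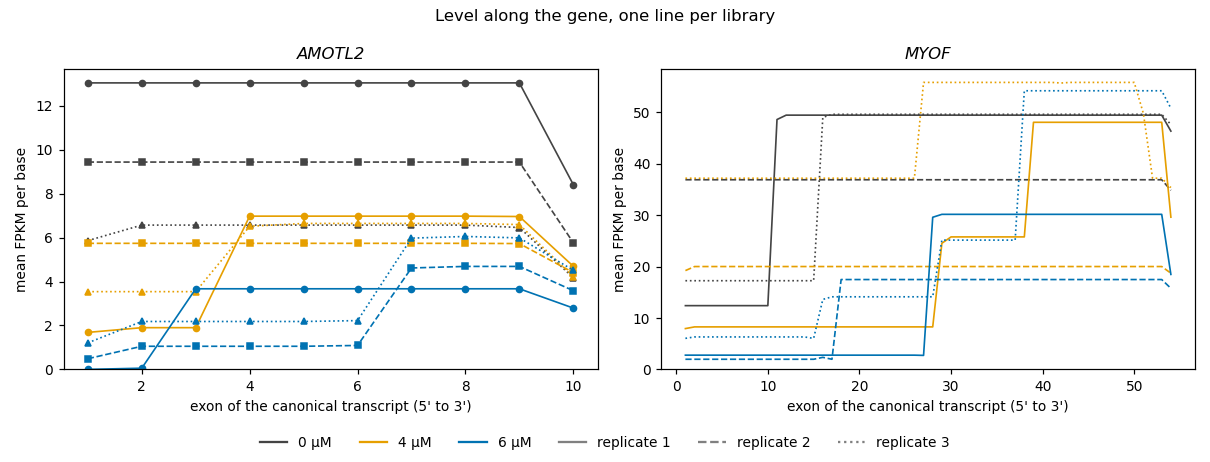
Mean FPKM per base (y axis) of each exon of the canonical AMOTL2 (left) and MYOF (right) transcript in 5′ to 3′ order (x axis), 1 line per library, with colour for the dose and line style for the replicate. The 6 µM lines of both genes start low and step up, with AMOTL2 5′ exons at 0.86 to 1.86 and MYOF 5′ exons at 2.77 to 7.56 FPKM.

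MYOF had a similar profile. Its 5′ exons (the first 1 in 3) were at 28.84, 36.91 and 22.62 FPKM in vehicle and 2.77, 2.86 and 7.56 at 6 µM, and its 3′ exons at 49.31, 36.8 and 49.53 and at 29.53, 17.39 and 52.42. The ratio was 0.58, 1 and 0.46 in vehicle, 0.19, 1 and 0.71 at 4 µM, and 0.09, 0.16 and 0.14 at 6 µM. In 2 vehicle libraries the 5′ exons were thus already at a lower level than the 3′ exons. Among the other listed genes with at least 6 exons, AMOTL1, AJUBA and CRIM1 had ratios from 0.48 to 1.23 at 6 µM and from 0.87 to 1.3 in vehicle, and NT5E had 1 to 1.04 and 1 to 1.54; F3 and ANKRD1 were assembled too rarely at 6 µM to compare. In all genes with at least 6 exons and a mean of at least 5 FPKM (6614 to 6632 per library), the share with a ratio under 0.5 was 7.1%, 4.9% and 6.2% in vehicle, 10.5%, 12% and 8.7% at 4 µM, and 18.4%, 16.7% and 11.4% at 6 µM. The vehicle libraries had the lowest shares, and replicate 3 at 6 µM fell within the 4 µM range. These shares moved with the dose over all measured genes, also outside the listed genes, and their part in the differences of AMOTL2, MYOF and the other genes was not tested. A transcript with all introns of the 5-exon gene CCN1 was assembled in all 9 libraries. In vehicle replicate 1 a second transcript of 3 exons held 42.5% of the CCN1 FPKM.

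**Figure D4:**
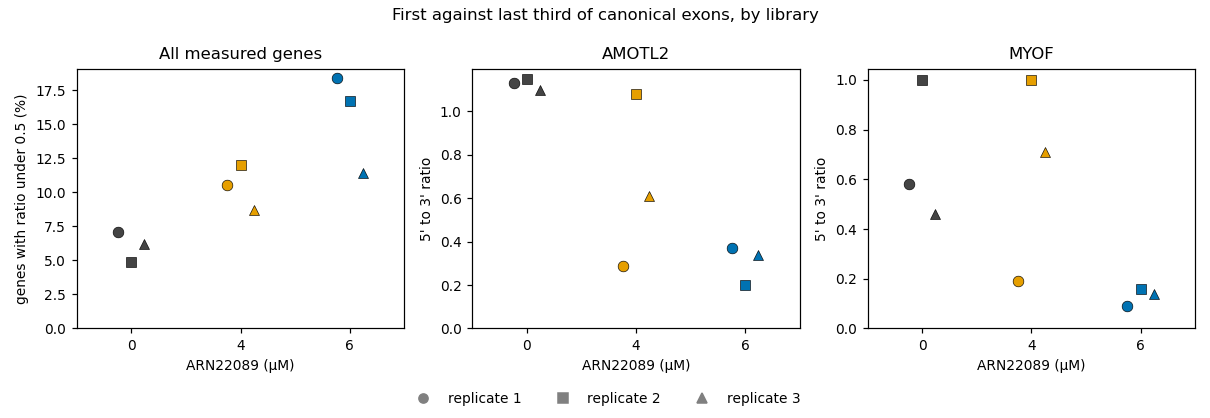
Left, share (%) of all measured genes whose 5′ exons are at less than 0.5 of the level of their 3′ exons, by library and dose; middle and right, the ratio itself for AMOTL2 and MYOF. The share is 4.9 to 7.1% in vehicle and 11.4 to 18.4% at 6 µM, and the AMOTL2 and MYOF ratios at 6 µM are 0.2 to 0.37 and 0.09 to 0.16.

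A published signature of YAP/TAZ targets, which includes 8 of the listed genes, has 14 further genes, whose differences lay in both directions. All 14 were tested, 0 passed the limma test at 4 or 6 µM, and the lowest adjusted p was 0.0696. At 6 µM 9 had negative and 5 positive differences, with a median of -0.16, and at 4 µM 8 were negative and 6 positive, with a median of -0.14. At an unadjusted p under 0.05, 3 of the 14 were lower and 1 higher at 4 µM (4.61% and 6.25% of all tested genes) and 2 lower and 1 higher at 6 µM (9.65% and 8.01%). The largest differences at 6 µM were those of AXL and LATS2. AXL, a receptor tyrosine kinase linked to invasive melanoma states, was at 29, 14.6 and 18 FPKM in vehicle, 8.63, 9.39 and 10.8 at 4 µM, and 6.77, 6.86 and 10 at 6 µM. All treated libraries lay below the vehicle libraries, with a log2 difference of -1.24 ± 0.26 at 6 µM (limma, adjusted p = 0.0696). LATS2, the Hippo kinase that is itself a YAP/TAZ target, was at 9.18, 11.6 and 12.3 FPKM in vehicle, 4.11, 6.28 and 9.24 at 4 µM, and 6.02, 4.84 and 3.43 at 6 µM (-1.07 ± 0.28, limma, adjusted p = 0.111). The 6 µM libraries lay below the vehicle range and the 4 µM libraries reached it. By the canonical exon value LATS2 was at 4.59, 5.79 and 6.13 in vehicle and 3.71, 2.88 and 3.43 at 6 µM. On that scale 60.7% of the vehicle mean was left at 6 µM, against 43.3% by the sum. FOXF2, a forkhead transcription factor named after its values were seen, was at 4.16, 4.64 and 5.39 FPKM in vehicle and 8.27, 14.2 and 8.21 at 6 µM (0.93 ± 0.23, limma, adjusted p = 0.102), higher without overlap, as were 11% of all tested genes.

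**Figure D5:**
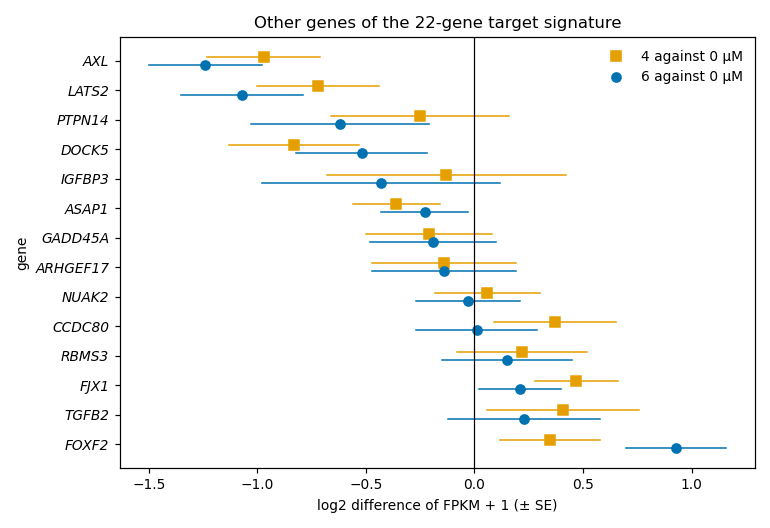
Log2 difference of FPKM + 1 from the vehicle libraries (x axis, bars ± 1 SE from limma) for the 14 further signature genes (y axis), with squares for 4 µM and circles for 6 µM. The points lie on both sides of 0 at both doses, from -1.24 for AXL to 0.93 for FOXF2 at 6 µM.

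Of 14 paralogs of the listed genes, 9 were named and 6 tested, and 0 passed the limma test at either dose; at an unadjusted p under 0.05, 1 was higher at 4 µM (6.25% of all tested genes), and 2 were lower and 2 higher at 6 µM (9.65% and 8.01%). CCN3, another matrix protein of the CCN family, was at 15.6, 21 and 10.5 FPKM in vehicle, 34.7, 28.9 and 25.1 at 4 µM, and 38.3, 43.3 and 20 at 6 µM. Its values lay in the opposite direction to CCN1 and CCN2, with all 4 µM and 2 of 3 6 µM libraries above the vehicle range and a log2 difference of 1.04 ± 0.33 at 6 µM (limma, adjusted p = 0.165). AMOT, the founding angiomotin, was at 7.05, 8.31 and 7.6 FPKM in vehicle, 3.49, 5.09 and 9.42 at 4 µM, and 2.63, 3.76 and 3.71 at 6 µM (-0.99 ± 0.29, limma, adjusted p = 0.144).

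Among 15 transcription regulators and Hippo kinases, all tested, 0 passed at either dose by limma; 2 at 4 µM and 3 at 6 µM were lower at an unadjusted p under 0.05 (4.61% and 9.65% of all tested genes), and the median differences were -0.09 and -0.28. At 6 µM 8 of the 15 lay wholly below the vehicle libraries, against 14% of all tested genes, and 11 differences were negative at each dose. LATS2 and TEAD1 had the largest differences at 6 µM, and TEAD1 was at 15, 18.7 and 14.7 FPKM in vehicle, 11.9, 11.2 and 12.2 at 4 µM, and 12.9, 4.93 and 13.2 at 6 µM (-0.69 ± 0.31, limma, adjusted p = 0.297). By the canonical exon value TEAD1 was at 9.81 in vehicle replicate 1, and the vehicle and 6 µM libraries overlapped. Serum response factor and its MRTF partners share several YAP/TAZ targets and respond to actin, and 17 of their 18 listed actin-skeleton genes were tested. None of these 17 passed the limma test; 1 at 4 µM and 3 at 6 µM were lower at an unadjusted p under 0.05 (4.61% and 9.65% of all tested genes), and the median differences were -0.05 and -0.22. The tropomyosin gene TPM2 was at 57.4, 8.4 and 18 FPKM in vehicle and 7.43, 9.26 and 10.5 at 6 µM, a difference carried by vehicle replicate 1 (-1.13 ± 0.6, limma, adjusted p = 0.359). CNN2, a calponin, was at 36.6, 74.3 and 60.5 FPKM in vehicle, 48.7, 51.1 and 50.8 at 4 µM, and 24.7, 31.7 and 34 at 6 µM (-0.86 ± 0.25, limma, adjusted p = 0.138).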

How the data were processed

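Polyadenylated RNA from WM3248 cells was sequenced, 3 libraries at each of 3 doses, grouped by the titles. Per the submitters' processing notes, the authors trimmed and aligned reads with tools that include TopHat2 2.1 with Bowtie2 2.2.7 and Trimmomatic, and assembled transcripts with Cufflinks 2.2.1 (SAMtools 1.9 and R 4.0.3 are also listed); the deposited files are Cufflinks assemblies, 1 per library, whose attribute column gives FPKM, with no gene names and no counts. The notes list GRCh37, but the coordinates and 352 transcripts on scaffolds named only in GRCh38 place the files in GRCh38.

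Of 193769 spliced transcripts, 97.3% were given a gene by at least 1 intron identical to a GENCODE intron on the same strand. The GRCh38 locations kept in the GRCh37 file of GENCODE were used (98.9% of exons). The gene sharing the most introns was taken, so a named transcript need not hold all introns of its gene. Single-exon transcripts needed 50% overlap with 1 gene, and that gene had to have no spliced transcript in any library. Single-exon pieces over exons of CCN2, AJUBA, CRIM1 and F3 were therefore left out of the summed values in some libraries. Summing was by gene; unnamed transcripts were left out, and named ones held 92.4 to 96% of FPKM times length. An exact 0 means that no transcript named for the gene was assembled, and 444 to 628 tested genes per library were at 0. limma 3.58.1 (R 4.3.3; trended prior, all 9 libraries, 6 residual degrees of freedom) was fitted to log2(FPKM + 1) for genes averaging 1 FPKM or more, with Benjamini-Hochberg adjustment over all of them and a threshold of 0.05; folds on this scale understate changes of low genes. The fit was tested on simulated data. The files give no read counts, so no counting interval is given.

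The 10 genes, the other lists and the tests were chosen with earlier results of these data known. Genes named from the other lists are those past the test and the 2 with the largest difference at 6 µM. Alternatives were another gene value, TPM, median-ratio scaling, a pseudocount of 0.1, no filter, a replicate block, 2 doses alone and single libraries left out; the canonical exon value was added after seeing the data. Replicate numbers pair the libraries because the labels give libraries of one number the same date; deviations from the dose means of same-numbered libraries correlated across genes at 0 to 0.14, and of differently numbered ones at -0.1 to 0.01.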

Additional observations from a re-analysis of the deposited data

How the results depend on the processing

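The median difference of the 10 genes kept its negative sign under every alternative run. At 6 against 0 µM it ran from -1.38 (canonical exon value) to -0.71 (TPM) against -0.94 as reported, and at 4 against 0 µM it was -0.35 with TPM against -0.55. TPM moved the median of all genes to 0.23 at 6 against 0 µM and to 0.31 at 4 against 0 µM. Leaving out single libraries gave -0.71 to -0.51 (4 against 0 µM), -1.16 to -0.86 (6 against 0 µM) and -0.61 to -0.35 (6 against 4 µM). The number of genes past the test at 6 against 0 µM was 1 as reported. It was 6 by the consensus exon value (with ANKRD1 among them), 2 by the canonical exon value, and 0 with TPM, with the replicate block and with the 2 doses alone. Leaving out single libraries gave 0 to 1: CCN1 without replicate 3 at 6 µM, and NT5E in place of CCN1 without vehicle replicate 1. The block, which uses the pairing by date, changed no other call among the 10 genes but took the count over all genes from 41 to 4 at 6 µM and from 11 to 2 at 4 µM. The cause of these shifts was not tested.

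Single genes near 0 turned sign. AJUBA at 4 µM, 0.05 as reported, was -0.19 and -0.14 by the consensus and canonical exon values, -0.01 without vehicle replicate 3, and between -0.04 (without replicate 3 at 4 µM) and 0.16 over single libraries left out. MYOF at 4 µM was -1.23 by the canonical exon value. Over single libraries left out it ran from -0.68 to 0.07, the latter without replicate 2 at 4 µM. Between 6 and 4 µM, NT5E was 0.03 by the consensus exon value. AMOTL1 was -0.04 with TPM and ran from -0.05 (without replicate 2 at 4 µM) to 0.04, with -0.01 without replicate 3 at 6 µM. MYOF ran from -0.71 to 0.31 (without replicate 2 at 6 µM), with 0.07 and 0.06 without replicates 1 and 3 at 4 µM. The files give no read counts, so the depth behind a single gene is unknown. Genes near 1 FPKM, such as ANKRD1 and F3, rest on whether a spliced transcript was assembled at all. In the fit of 6 and 4 µM alone ANKRD1 fell under the filter.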

Other observations

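Transcripts that skipped an internal exon were assembled in more than 1 library for 2 of the 10 genes. An AMOTL1 transcript without the second exon of the canonical form (150 bases) held 12.7% and 13.8% of the AMOTL1 FPKM in vehicle replicates 1 and 2 and was not assembled in replicate 3. At 4 µM it held 18.6%, 36.6% and 45% in replicates 1, 2 and 3, and at 6 µM it was assembled in no library. The 4 µM shares lay above the vehicle shares without overlap, and these shares were not tested and were chosen after their values were seen. A CRIM1 transcript without the second exon (174 bases) held 20.2% in vehicle replicate 1, 76.4% in replicate 3 at 4 µM and 33% in replicate 1 at 6 µM, and was not assembled in the other 6 libraries. Both lengths are multiples of 3.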
